A study of Mus musculus with 6 samples.

Results

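Long intergenic noncoding RNAs (lincRNAs) are transcripts that lie between protein-coding genes and are annotated as carrying no reading frame. The set described here was every autosomal gene that GENCODE vM21 types as lincRNA and that averaged a CPM of at least 1 (counts scaled by the library total) over 6 mouse RNA-seq libraries. This gave 146 of the 46078 genes in the count tables, out of 2536 autosomal lincRNAs listed there. All 146 passed the low-count filter and were tested. The mean level chose the set, so the abundance of its genes is given as a description. The lincRNAs just inside the limit were Platr7 at 1.01 CPM and AI427809 at 1.012 CPM, and those just outside it were Gm26779 at 0.954 CPM and Gm10451 at 0.935 CPM. The mean was 1 CPM or more in both groups for 118 lincRNAs, in JMML alone for 4 and in WT alone for 24.

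The study set 3 libraries of mice labelled with juvenile myelomonocytic leukemia (JMML), a childhood myeloid leukemia, against 3 wild-type (WT) libraries. The labels give neither the altered gene of the JMML mice nor the strain, age or tissue. They do not say that libraries of a group came from separate animals, so the p-values measure the spread between these libraries. Library identifiers close with the letter F for JMML replicates 1 and 2 and with M for JMML replicate 3 and every WT library. Those of JMML replicate 3 and WT replicate 3 both open with N393. The labels explain neither. The RNA was total RNA depleted of ribosomal RNA, so transcripts without a poly(A) tail could be counted.

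Some lincRNAs stay at nuclear sites, such as Neat1, the scaffold of the nuclear bodies called paraspeckles, and Malat1, which lies at speckles of splicing factors. Others act on a neighbouring gene in cis, or serve mainly as the precursor of small nucleolar RNAs (snoRNAs) or microRNAs (miRNAs) cut from them. In blood cells, single lincRNAs have been tied to the survival of short-lived myeloid cells, to erythroid maturation and to inflammatory gene expression.

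Total counts were 91976512 to 108395459 in JMML libraries and 47096464 to 61656272 in WT libraries. Of 8 marker genes each for B cells, T cells and megakaryocytes, 8 of 8 were lower in JMML in every list, as were 5 of 8 erythroid markers, while 6 of 8 monocyte, 3 of 8 neutrophil, 5 of 6 primary granule and 5 of 8 dendritic cell markers were higher. Of all genes tested, 12.4% were higher and 13.8% were lower in JMML. The hepatocyte markers Alb and Serpina1a were at 0 in all libraries. In bulk samples, fewer cells of a type and less RNA per cell cannot be told apart. Levels below are CPM after scaling by the trimmed mean of M-values (TMM), called normalized CPM. A gene is called changed where edgeR's quasi-likelihood test gave a Benjamini-Hochberg adjusted p under 0.05 over the 18097 genes tested, and log2 fold changes are JMML over WT with their standard error (SE).

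In JMML libraries, 11 lincRNAs were higher and 28 were lower than in WT libraries, and 107 did not pass the test. The share called was 26.7% of the 146 lincRNAs, against 26.2% of all genes tested. By direction, 7.53% of the lincRNAs were higher, against 12.4% of all genes tested, and 19.2% were lower, against 13.8% of all genes tested. Among autosomal protein-coding genes at a mean of 1 CPM or more, 30.5% were called, 16.7% higher and 13.9% lower. Among the 242 tested autosomal lincRNAs below 1 CPM, 10.3% were called, 2.07% higher and 8.26% lower. The median log2 fold change was -0.30 over the 146 lincRNAs, -0.02 over all genes tested and 0.06 over autosomal protein-coding genes at a mean of 1 CPM or more. Of the 146 log2 fold changes, 93 were below 0 (63.7%, against 51.5% of all genes tested) and 53 above it. The filter can add to this split, since 24 lincRNAs reached 1 CPM in WT alone and 4 in JMML alone. Among the 10 largest called increases, Gpr141b and Gm19705 reached it in JMML alone. Among the 10 largest called decreases, Gm30211, Gm30948, 5930430L01Rik, 2610035D17Rik, BC043934, Gm19590 and AI427809 reached it in WT alone. These genes entered the set only through the group where they are high. Of the 118 at 1 CPM or more in both groups, 9 were higher and 20 lower. Of all 39 calls, 9 increases and 19 decreases reached 2-fold. Scaling by library totals alone gave 7 higher and 35 lower lincRNAs, where the median of all genes tested was -0.21.

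The groups did not overlap for any of the 39 called lincRNAs, nor for 21 lincRNAs that were not called. The share without overlap was 41.1% of the lincRNAs and 47.5% of all genes tested. All 39 kept their direction in each of the 17 alternative fits. As their groups did not overlap, leaving out libraries could hardly have turned a direction. The calls of these 39 depended on the libraries used. Letter F occurs only in JMML replicates 1 and 2. With the letter as a covariate, the JMML effect therefore rests on JMML replicate 3, as in the M libraries alone. These fits are not separate checks, and they cannot tell the letter from the loss of JMML libraries. With the identifier letter as a covariate 3 lincRNAs were higher and 9 were lower, and with JMML replicate 3 alone against the 3 WT libraries, all with the letter M, 3 were higher and 13 were lower. The 10 calls kept with the letter were those of Gpr141b, AW112010, AI839979, Neat1, Gm30211, 5930430L01Rik, 2610035D17Rik, Gm15675 and, chosen here after their values were seen, AI480526 and D930016D06Rik. Leaving out JMML replicate 1 left 6 higher lincRNAs, leaving out WT replicate 1 left 6 higher and 15 lower, and leaving out WT replicate 2 left 5 higher and 11 lower. Leaving out JMML replicate 2 left 7 higher and 17 lower, and leaving out JMML replicate 3 left 16 lower.

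**Figure D1:**
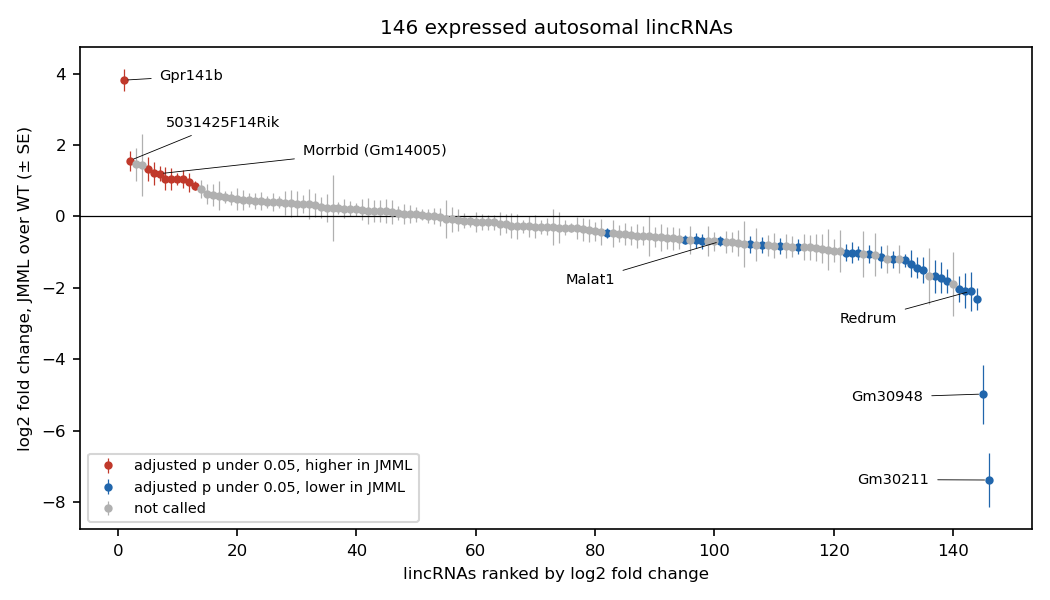
All 146 lincRNAs are ranked along the x axis by log2 fold change, JMML over WT, which is on the y axis with its SE as bars. Red points are the 11 called higher, blue points the 28 called lower and grey points the 107 not called. Gpr141b stands highest at 3.82 and Gm30211 lowest at -7.39.

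As a class, these lincRNAs were lowly expressed genes close to coding ones. Their exons covered a median of 2440.5 bases, from 269 bases in Mir142hg to 20771 bases in Neat1, and 32 had a single exon block. The median plain CPM was 2.9, with 27 lincRNAs at 10 CPM or more and 88 under 5 CPM. Despite their name, 72 overlapped another annotated gene and 82 lay over or within 5 kb of a protein-coding gene, 26 of them divergent from it. RefSeq matched 104 of the 146 by symbol or synonym, and typed 90 of those as lncRNA, 10 as protein-coding and 4 as pseudogenes. Of the called lincRNAs, Gpr141b, Tmem250-ps and D930016D06Rik were among the 10.

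Among the 12 lincRNAs on a list of described roles in blood or immune cells, Morrbid and AW112010 were higher in JMML, while Malat1, Neat1, Mirt1 and Lockd were lower. Another 6 of these 12 genes did not pass the test: Mir17hg, Mir142hg, H19, Pvt1, Lncpint and 2900097C17Rik, the mouse gene also called Norad. The full list from which they come named 33 symbols of any gene type. Of its 24 tested genes 2 were higher and 6 lower in JMML, where 12.4% of all genes tested were higher and 13.8% lower. They had a median log2 fold change of -0.11, against -0.02 over all genes tested. The other lower genes were Gm16685 and Mir99ahg, neither of them typed as a lincRNA. Redrum and AI427809, given below with roles in red cells and macrophages, were not on this list and were also lower in JMML.

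Morrbid, listed as Gm14005 (ENSMUSG00000074813, chromosome 2, 128178319 to 128502765, minus strand), is known to prolong the life of neutrophils, eosinophils and classical monocytes by repressing the neighbouring gene Bcl2l11, which encodes the pro-death protein Bim. It had 11.4, 11.2 and 8.35 normalized CPM in JMML libraries, against 3.91, 4.96 and 4.61 in WT libraries. Every JMML library lay above every WT library, and JMML replicate 3 was the lowest of its group. The log2 fold change was 1.20 ± 0.20 (SE, adjusted p = 0.00747, edgeR). It was 0.89 with the letter as a covariate and 0.93 in the M libraries alone, where the call ended. Bcl2l11 lay 15771 bases away and had 21.8, 20.7 and 14.1 normalized CPM in JMML libraries, against 23.2, 17.7 and 22.8 in WT libraries. Its groups overlapped and its log2 fold change of -0.17 ± 0.20 did not pass the test (adjusted p = 0.56).

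The promoter of Morrbid is shown because it holds one of the few matches to a myeloid motif among the called lincRNAs. The windows run from 250 bases before to 50 bases after a gene's start in RefSeq (GRCm38.p6). For Morrbid, that start lies inside the gene body of GENCODE vM21, whose start on the minus strand is 128502765. Capitals mark GAGGAAGT or its reverse complement, a sequence bound by PU.1, a master transcription factor of myeloid and B cells. The other windows are of 5031425F14Rik, which was higher in JMML, and of Mirt1, which was lower. The motif is also in the window of D130017N08Rik, lower in JMML (-1.14 ± 0.32), which is named for its match alone and not shown.
Morrbid, chr2:128429302-128429601, minus strand: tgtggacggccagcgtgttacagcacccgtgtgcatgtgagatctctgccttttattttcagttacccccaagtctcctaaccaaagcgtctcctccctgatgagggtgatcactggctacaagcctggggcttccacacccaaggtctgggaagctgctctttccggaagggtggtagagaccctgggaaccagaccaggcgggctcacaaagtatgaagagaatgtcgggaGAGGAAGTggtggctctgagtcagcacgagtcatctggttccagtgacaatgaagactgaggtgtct
5031425F14Rik, chr2:166447201-166447500, plus strand: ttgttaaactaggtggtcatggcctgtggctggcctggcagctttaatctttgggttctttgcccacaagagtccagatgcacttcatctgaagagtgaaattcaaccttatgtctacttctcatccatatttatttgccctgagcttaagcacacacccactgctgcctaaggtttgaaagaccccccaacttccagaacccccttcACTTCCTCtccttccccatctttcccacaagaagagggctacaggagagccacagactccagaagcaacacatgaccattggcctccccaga
Mirt1, chr19:53464747-53465046, minus strand: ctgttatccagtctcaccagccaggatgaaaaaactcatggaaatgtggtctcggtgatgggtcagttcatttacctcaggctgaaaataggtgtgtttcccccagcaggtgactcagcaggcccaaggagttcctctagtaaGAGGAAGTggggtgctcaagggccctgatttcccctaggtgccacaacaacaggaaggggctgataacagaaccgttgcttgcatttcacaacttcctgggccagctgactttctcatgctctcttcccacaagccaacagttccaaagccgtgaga
Searched on both strands, the motif was in 2 of 9 higher, 2 of 14 lower and 5 of 57 uncalled lincRNAs with a window, and in 3.69% of all 27025 genes with one. The GATA motif AGATAA was in 0 of 9 higher, 1 of 14 lower and 6 of 57 uncalled lincRNAs, and in 12.7% of all genes with a window. A match says only that these letters are in the window.

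AW112010 (ENSMUSG00000075010, chromosome 19, 11047612 to 11055808, minus strand) is an interferon-responsive transcript that macrophages translate from a non-canonical reading frame. It had 15.0, 12.3 and 12.2 normalized CPM in JMML libraries, against 6.60, 6.82 and 5.76 in WT libraries. The groups were far apart relative to their spread, with means of 13.2 ± 1.56 in JMML and 6.39 ± 0.559 in WT (SD, n = 3 each). The log2 fold change was 1.04 ± 0.17 (adjusted p = 0.0064, edgeR), and the call held in all 17 alternatives. The nearest coding gene, Ms4a8a of the Ms4a membrane protein family, lay 11662 bases away. Ms4a8a had 79.5, 27.7 and 9.82 normalized CPM in JMML libraries, against 3.49, 3.14 and 3.82 in WT libraries, a log2 fold change of 3.48 ± 0.70 (adjusted p = 0.0126, edgeR).

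The largest increase was in Gpr141b (ENSMUSG00000047462, chromosome 13, 19727426 to 19732951, minus strand), also called Karma and used as a marker of dendritic cells. It had 14.2, 16.3 and 8.19 normalized CPM in JMML libraries, against 0.892, 1.05 and 0.791 in WT libraries. Even JMML replicate 3, the lowest of its group, was well above the WT range. The mean of Gpr141b reached 1 CPM in JMML libraries alone, so it entered the set through the group where it is high. The log2 fold change was 3.82 ± 0.32 (adjusted p = 0.00186, edgeR), called in all 17 alternatives. Its paralog Gpr141, a coding gene 16730 bases away, had 354, 250 and 219 normalized CPM in JMML libraries, against 62.9, 78.0 and 68.8 in WT libraries, a log2 fold change of 1.97 ± 0.20. Reads that fit both paralogs may have been divided between them or dropped. The summed dendritic cell markers had 472 to 658 normalized CPM in JMML libraries and 260 to 295 in WT libraries. Of the 8, 5 were higher in JMML, 1 was lower and 2 did not pass the test. The part of such cells in the rise of Gpr141b was not tested.

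The other lincRNAs with the 10 largest increases have no role that is well described. 5031425F14Rik had 4.47, 3.81 and 3.81 normalized CPM in JMML libraries, against 1.25, 1.02 and 1.82 in WT libraries. The gap between the groups exceeded the spread within either, and the log2 fold change was 1.56 ± 0.28 (adjusted p = 0.00949, edgeR). Its call ended with the letter as a covariate (1.48) and in the M libraries alone (1.52). E230001N04Rik had 6.0, 6.1 and 3.2 normalized CPM in JMML libraries, against 1.95, 2.76 and 1.91 in WT libraries, a log2 fold change of 1.21 ± 0.32 (adjusted p = 0.0306, edgeR). It starts 5192 bases from Fkbp5, a chaperone gene induced by glucocorticoids, which was also higher in JMML with a log2 fold change of 1.51 ± 0.21. The value of E230001N04Rik was 0.54 with the letter as a covariate and 0.58 in the M libraries alone, and its call also ended without JMML replicate 1 (1.09), JMML replicate 2 (1.08), WT replicate 1 (1.18), WT replicate 2 (1.39) or WT replicate 3 (1.16).

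F730016J06Rik had 23.0, 12.3 and 18.9 normalized CPM in JMML libraries, against 5.68, 5.29 and 10.7 in WT libraries. JMML replicate 2 and WT replicate 3 came close to each other, and the log2 fold change was 1.32 ± 0.34 (adjusted p = 0.028, edgeR). The call ended without JMML replicate 1 (1.12), WT replicate 1 (1.21), JMML replicate 3 (1.3) or WT replicate 2 (1.13). It lies 10591 bases from Fcnb, which encodes a ficolin of myeloid cells and had a log2 fold change of 0.73 ± 0.23 that missed the threshold (adjusted p = 0.053). Gm807, 77242 bases from the called gene Zfp366 (1.48 ± 0.33), had 2.96, 3.55 and 2.42 normalized CPM in JMML libraries, against 1.34, 1.55 and 1.46 in WT libraries. Its log2 fold change was 1.04 ± 0.25, and the call ended without WT replicate 1 (1.03) or 2 (1.08) or JMML replicate 2 (0.91). D5Ertd605e (1.05 ± 0.30), Gm19705 (1.06 ± 0.31) and 2310040G24Rik (0.95 ± 0.26) were nearest the threshold, with adjusted p of 0.0392, 0.0432 and 0.0351 by edgeR. Each of these 3 lost its call in at least 9 of 17 alternatives, among them without JMML replicate 1 or any 1 WT replicate (0.86 to 1.21). The remaining higher lincRNA, AI839979, had a log2 fold change of 0.86.

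**Figure D2:**
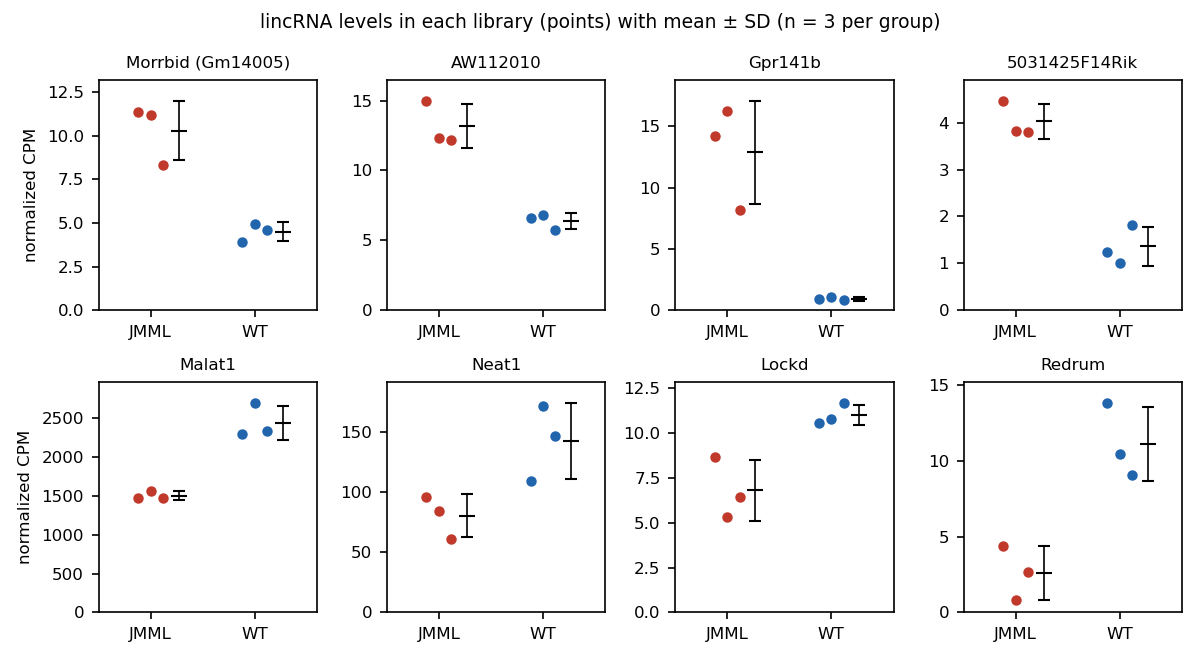
Each panel shows 1 lincRNA, with normalized CPM on a linear y axis, the 3 JMML libraries as red points on the left and the 3 WT libraries as blue points on the right. Black marks give the mean ± SD (n = 3 per group). The 4 lincRNAs of the top row are higher in every JMML library than in any WT library, and the 4 of the bottom row are lower.

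Malat1 and Neat1, neighbours on chromosome 19, were both lower in JMML. Malat1 (ENSMUSG00000092341, 5795690 to 5802672, minus strand) had 1472, 1567 and 1479 normalized CPM in JMML libraries, against 2299, 2696 and 2341 in WT libraries. The JMML libraries were close together and all below the WT libraries. The log2 fold change was -0.70 ± 0.14 (adjusted p = 0.0119, edgeR). The call ended with the letter as a covariate (-0.73) and in the M libraries alone (-0.69), at nearly the same value. Neat1 (ENSMUSG00000092274, 5824708 to 5845478, minus strand) had 96.2, 84.5 and 61.0 normalized CPM in JMML libraries, against 109, 172 and 147 in WT libraries. JMML replicate 1 came near WT replicate 1, and the log2 fold change was -0.82 ± 0.22 (adjusted p = 0.0308, edgeR). The call ended without JMML replicate 2 (-0.84), JMML replicate 3 (-0.63), WT replicate 2 (-0.68) or WT replicate 3 (-0.76). Per kb of exon, Malat1 averaged 216 normalized CPM in JMML and 350 in WT libraries, and Neat1 3.88 in JMML and 6.86 in WT.

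Among genes for core proteins of paraspeckles, Sfpq at a log2 fold change of -0.37 and Pspc1 at -0.32 did not pass edgeR's test, with adjusted p of 0.0766 and 0.0956.

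Mirt1, first described in infarcted mouse heart, had 11.4, 10.8 and 10.4 normalized CPM in JMML libraries, against 18.1, 16.1 and 17.1 in WT libraries. The groups were narrow and apart, and the log2 fold change was -0.65 ± 0.13 (adjusted p = 0.0134, edgeR). The call ended without WT replicate 1 (-0.56), with no low-count filter (-0.57), with the letter as a covariate (-0.72) and in the M libraries alone (-0.68). Mirt1 overlaps the opposite-strand lincRNA 4833407H14Rik, which RefSeq merges with it and whose log2 fold change of -0.75 was not called. Lockd, transcribed downstream of the cell cycle inhibitor gene Cdkn1b, had 8.66, 5.34 and 6.45 normalized CPM in JMML libraries, against 10.6, 10.8 and 11.7 in WT libraries. Its log2 fold change was -0.69 ± 0.21 (adjusted p = 0.0469, edgeR), and the call ended in 9 of 17 alternatives, among them without JMML replicate 2 (-0.53), JMML replicate 3 (-0.63), WT replicate 1 (-0.68), WT replicate 2 (-0.72) or WT replicate 3 (-0.61). Cdkn1b had 96.3, 101 and 81.2 normalized CPM in JMML libraries, against 46.2, 72.9 and 80.3 in WT libraries. Its libraries were higher in JMML, but its log2 fold change of 0.48 ± 0.21 did not pass the test (adjusted p = 0.123).

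Redrum, a lincRNA of maturing red cells, had 4.36, 0.799 and 2.66 normalized CPM in JMML libraries, against 13.8, 10.4 and 9.05 in WT libraries. JMML libraries differed more than 3-fold among themselves but stayed below every WT library. The log2 fold change was -2.09 ± 0.55 (adjusted p = 0.0296, edgeR), and the call ended with the letter as a covariate (-2.06), without any 1 WT replicate (-2.19 to -1.86) or without JMML replicate 3 (-2.10). The summed erythroid markers had 103 to 404 normalized CPM in JMML libraries and 952 to 1400.0 in WT libraries. The part of erythroid cells in the fall of Redrum was not tested.

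The decreases of greatest size were in a pair of genes inside immunoglobulin loci. Both reached a mean of 1 CPM in WT libraries alone, so they entered the set through the group where they are high. Gm30211 (ENSMUSG00000105646, chromosome 6, 70719074 to 70740554, plus strand) overlaps the kappa light chain segments Igkj1 and Igkc on the same strand. It had 2, 2 and 0 reads in JMML libraries, against 105, 107 and 255 reads in WT libraries. From the 4 and 467 reads, the scaled ratio was 0.00541, with an exact 95% interval of 0.00147 to 0.0139 that covers counting error only. The fitted log2 fold change was -7.39 ± 0.76 (adjusted p = 0.00242, edgeR), called in all 17 alternatives. Igkc fell as well, with a log2 fold change of -3.38 ± 0.44. Gm30948 (ENSMUSG00000103168, chromosome 12, 115262684 to 115287908, plus strand) lies across the heavy chain pseudogene Ighv1-57 on the opposite strand. It had 4, 15 and 12 reads in JMML libraries, against 65, 128 and 409 reads in WT libraries, a log2 fold change of -4.98 ± 0.83 (adjusted p = 0.00718, edgeR). Its call ended with the letter as a covariate (-4.71) and in the M libraries alone (-4.67). The summed B cell markers had 10 to 15.1 normalized CPM in JMML libraries and 101 to 409 in WT libraries, all 8 of them lower in JMML. The part of B cells in both decreases was not tested, and reads of overlapping genes cannot be assigned with certainty.

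5930430L01Rik had 0.720, 0.399 and 0.517 normalized CPM in JMML libraries, against 2.60, 2.47 and 3.04 in WT libraries, and 2610035D17Rik had 0.891, 0.466 and 0.429 in JMML, against 2.03, 2.74 and 2.49 in WT. Both were called in all 17 alternatives, with log2 fold changes of -2.31 ± 0.31 and -2.02 ± 0.37. AI427809, which RefSeq lists as Mexis, is known in mouse macrophages to raise transcription of Abca1, the cholesterol exporter. It had 0.549, 0.361 and 0.462 normalized CPM in JMML libraries, against 2.42, 1.11 and 0.980 in WT libraries. WT replicate 1 was the highest of its group by far, the log2 fold change was -1.72 ± 0.44 (adjusted p = 0.0276, edgeR), and it was -1.14, not called, without that library. The call also ended without JMML replicate 1 (-1.85), JMML replicate 2 (-1.56), JMML replicate 3 (-1.71) or WT replicate 2 (-1.89). Abca1, 101460 bases away, had 65.4, 45.9 and 8.69 normalized CPM in JMML libraries, against 63.6, 106 and 61.2 in WT libraries. Its log2 fold change of -0.94 ± 0.62 did not pass the test (adjusted p = 0.288).

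Gm19590, downstream of the endothelial receptor gene Kdr by 97181 bases, had 0.146, 0.475 and 0.561 normalized CPM in JMML libraries, against 1.74, 1.55 and 1.75 in WT libraries. Its log2 fold change was -2.08 ± 0.48 (adjusted p = 0.0208, edgeR), and that of Kdr was -3.31 ± 0.54 (adjusted p = 0.00694, edgeR). Of 8 endothelial and stromal markers, Kdr included, 6 were lower in JMML, and the part of those cells was not tested. The call of Gm19590 ended without any 1 WT replicate (-2.13 to -2.0) or JMML replicate 2 (-2.22). BC043934 at -1.81 ± 0.34, Gm15675 at -1.68 ± 0.47 and 1700001L05Rik at -1.50 ± 0.37 were also among the 10 largest decreases. Gm15675 lies 1835 bases from Cd55, a complement inhibitor gene that was also lower in JMML (-1.32 ± 0.20), and its call ended without JMML replicate 2 (-1.65) or any 1 WT replicate (-1.45 to -1.78), while with the letter as a covariate it was -2.89 and called. That of 1700001L05Rik also ended without any 1 WT replicate (-1.35 to -1.58). The 13 lower lincRNAs outside the naming rules had log2 fold changes of -1.43 to -0.67.

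Host genes of small RNAs were not called. Of the 146 lincRNAs, 5 contain an annotated snoRNA and 9 an annotated miRNA, and 0 of these 14 passed edgeR's test, against 26.2% of all genes tested, with 1 at an unadjusted p under 0.05, 1 called by DESeq2 and 0 by limma-voom. Their log2 fold changes ran from -0.81 to 1.45. Since these libraries count host transcripts, levels of the mature small RNAs were not measured. The best known hosts carry families that are grouped by their seed, bases 2 to 8, which pairs with target mRNAs and is in capitals in the RefSeq mature sequences (GRCm38.p6) shown here.

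The lincRNA 6720427I07Rik (chromosome 13, 48532905 to 48546500, minus strand) hosts let-7a-1, let-7f-1 and let-7d, members of a family that restrains growth and is held down in fetal cells by the Lin28 proteins. All 3 share the seed GAGGUAG.
mmu-let-7a-5p: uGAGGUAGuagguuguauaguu
mmu-let-7f-5p: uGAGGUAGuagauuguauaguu
mmu-let-7d-5p: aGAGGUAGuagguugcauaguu
The host had 22.9, 12.3 and 10.6 normalized CPM in JMML libraries, against 14.1, 12.9 and 11.2 in WT libraries. JMML replicate 1 stood above all others and the groups overlapped. The log2 fold change of 0.26 ± 0.29 did not pass the test (adjusted p = 0.541). Lin28b had 1.13, 2.03 and 2.13 normalized CPM in JMML libraries, against 0.892, 0.996 and 1.38 in WT libraries, and was not called (0.70 ± 0.35), while Lin28a was higher in JMML (0.97 ± 0.24, adjusted p = 0.0264, edgeR).

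Mir17hg (chromosome 14, 115042879 to 115046727, plus strand) hosts the miR-17-92 cluster, a driver of proliferation and B cell survival. The pairs miR-17 with miR-20a and miR-19a with miR-19b share a seed, and miR-18a and miR-92a have their own.
mmu-miR-17-5p: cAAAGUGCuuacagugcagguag
mmu-miR-20a-5p: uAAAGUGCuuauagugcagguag
mmu-miR-18a-5p: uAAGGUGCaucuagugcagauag
mmu-miR-19a-3p: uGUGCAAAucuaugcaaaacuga
mmu-miR-19b-3p: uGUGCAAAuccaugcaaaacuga
mmu-miR-92a-3p: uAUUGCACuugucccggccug
The host had 11.5, 9.60 and 9.23 normalized CPM in JMML libraries, against 16.0, 19.1 and 9.29 in WT libraries. WT replicate 3 lay at the JMML level, and the log2 fold change of -0.55 ± 0.27 did not pass the test (adjusted p = 0.166). Without WT replicate 3 it was -0.75 and was called. Myc, a direct activator of the cluster in several cell types, was lower in JMML (-1.02 ± 0.17, adjusted p = 0.0069, edgeR). Pvt1, the lincRNA 47611 bases from Myc, had 5.11, 2.15 and 2.63 normalized CPM in JMML libraries, against 5.61, 4.27 and 2.37 in WT libraries, and its log2 fold change of -0.31 ± 0.43 was not called and turned to 0.04 without WT replicate 1.

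Mir142hg (chromosome 11, 87755577 to 87757270, plus strand) hosts miR-142, which is abundant in all blood lineages.
mmu-miR-142a-5p: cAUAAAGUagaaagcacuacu
mmu-miR-142a-3p: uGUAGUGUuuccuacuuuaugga
It had 6.39, 9.68 and 7.95 normalized CPM in JMML libraries, against 6.03, 14.2 and 10.7 in WT libraries, with overlapping groups and a log2 fold change of -0.36 ± 0.32 (adjusted p = 0.427, edgeR). H19, an imprinted fetal growth regulator and host of miR-675, varied widely within groups. It had 4.58, 3.83 and 1.51 normalized CPM in JMML libraries, against 0.246, 0.517 and 2.87 in WT libraries. WT replicate 3 was above JMML replicate 3, and the log2 fold change of 1.45 ± 0.86 did not pass the test (adjusted p = 0.244). Without WT replicate 3 it was 3.16 and was called, and with the letter as a covariate it was 0.32. Of 8 tested genes on the list of imprinted noncoding RNAs, H19 was the one in this set, and 3 others, Kcnq1ot1, Nespas and Peg13, were lower in JMML. On the list of miRNA hosts of every gene type, 1 of 8 tested genes, Mir99ahg (-2.37), was lower. Beside both lists, 13.8% of all genes tested were lower.

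Of the lincRNAs on the snoRNA host list, whose introns carry the small RNAs while the spliced exons are often unstable, Snhg12, Snhg6, Snhg20 and Epb41l4aos had overlapping groups. Snhg12 had 13.1, 11.4 and 13.9 normalized CPM in JMML libraries, against 18.5, 15.7 and 12.3 in WT libraries (-0.28 ± 0.19). Snhg6 (0.20 ± 0.19), Epb41l4aos (0.22 ± 0.21) and Snhg20 (0.01 ± 0.21) lay near 0, the sign of Snhg20 turning in 6 alternatives. On the list of snoRNA hosts of every gene type, 0 of 16 tested genes passed edgeR's test, against 26.2% of all genes tested. At an unadjusted p under 0.05 there were 2, DESeq2 called 1 and limma-voom 0. For the 7 genes of the box C/D snoRNP, the protein particle on box C/D snoRNAs only, edgeR, DESeq2 and limma-voom called 0. Of these 7 genes, 1 had an unadjusted p under 0.05. Snhg12 also holds snoRNAs outside that class, such as Snora44, and genes for their proteins were not listed. Of 8 genes that process or load miRNAs, the nuclease Drosha (-0.82) and the Argonautes Ago2 (-1.12) and Ago3 (-0.60) were lower in JMML. The other 5 were not called, and 13.8% of all genes tested were lower.

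**Figure D3:**
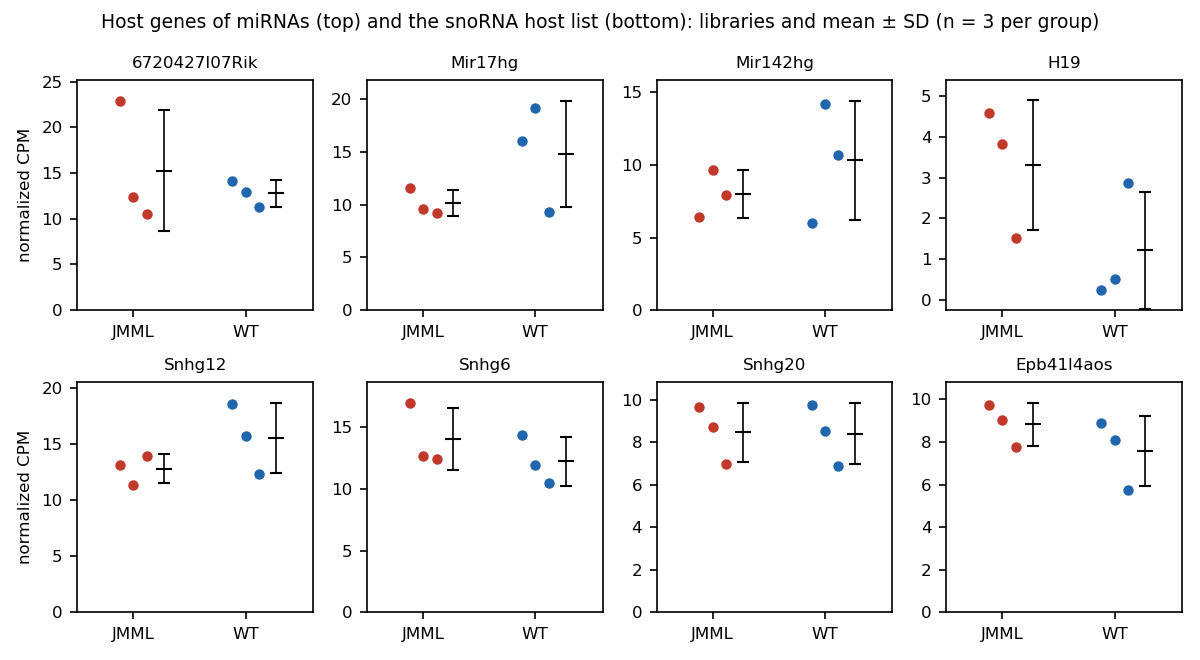
Each panel shows 1 host lincRNA, with miRNA hosts in the top row and genes of the snoRNA host list in the bottom row, where Snhg20 holds an annotated miRNA. The y axis is normalized CPM, red points on the left are JMML libraries, blue points on the right are WT libraries, and black marks are the mean ± SD (n = 3 per group). The groups overlap in all 8 panels.

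The set held 1.56%, 1.40% and 1.44% of all counts in JMML libraries, against 3.85%, 3.00% and 2.03% in WT libraries. The WT libraries were all higher and far more spread, with means of 1.47% ± 0.0805 in JMML and 2.96% ± 0.911 in WT (SD, n = 3 each). The two-sided exact permutation test gave p = 0.1, the smallest that 3 against 3 libraries can give. Most of this share lay in 3 lincRNAs that adjoin or overlap an annotated rRNA gene on chromosome 17: Gm26917, AY036118 and Gm42418, which RefSeq lists as the 18S-related pseudogene Rn18s-rs5. Together they held 1.3%, 1.14% and 1.19% of counts in JMML libraries, against 3.47%, 2.51% and 1.62% in WT libraries. Malat1 held 0.131%, 0.152% and 0.141% in JMML, against 0.242%, 0.299% and 0.242% in WT. The other 142 lincRNAs held 0.113% ± 0.00929 in JMML and 0.167% ± 0.028 in WT, with p = 0.1 by the same exact test. One of these 142 is Gm26870, with means of 63.7 ± 57.8 normalized CPM in JMML and 235 ± 175 in WT (SD, n = 3 each).

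**Figure D4:**
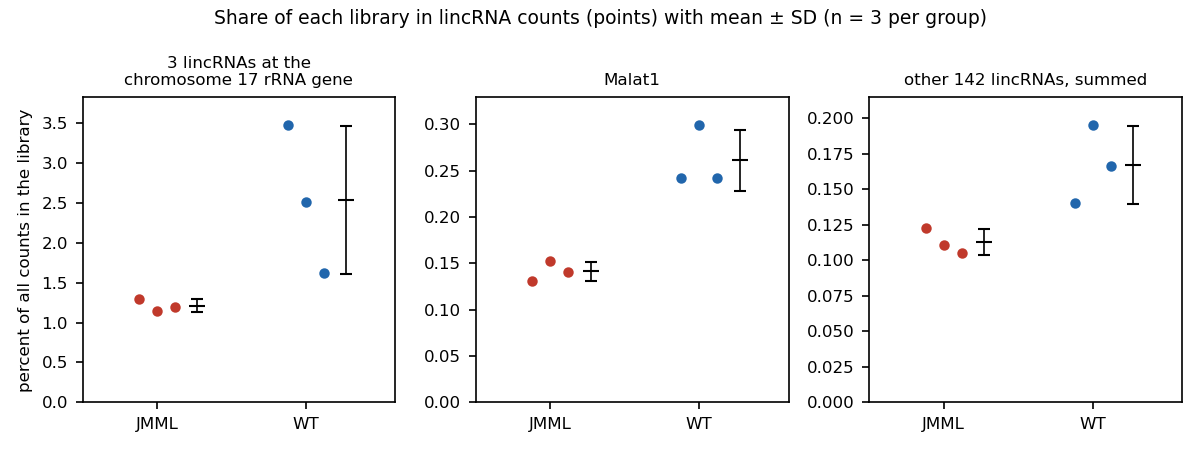
The y axes give the percent of all counts in a library, each from 0, for the 3 lincRNAs at the chromosome 17 rRNA gene, for Malat1 and for the other 142 lincRNAs summed. Red points on the left are JMML libraries, blue points on the right are WT libraries, and black marks are the mean ± SD (n = 3 per group). All JMML libraries lie below all WT libraries in each panel, and the 3 rRNA-locus lincRNAs differ most among WT libraries, from 1.62% to 3.47%.

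Those 3 lincRNAs did not move as 1 unit. Gm26917 had 11249, 9171 and 10283 normalized CPM in JMML libraries, against 30052, 16461.5 and 10005 in WT libraries, and AY036118 had 1558, 1068 and 581 in JMML, against 449, 5044 and 4701 in WT. WT replicate 1 was thus the highest library for Gm26917 and the lowest for AY036118. None of the 3 was called by edgeR or limma-voom and 1 was called by DESeq2; 0 had an unadjusted p under 0.05. Leaving out 1 library changed this: without WT replicate 1 AY036118 (-2.15) and Gm42418 (0.68) were called, and without WT replicate 3 Gm26917 was (-1.15). Gm42418, at 0.12 ± 0.33, turned to -0.05 without WT replicate 2, to -0.08 without WT replicate 3 and to -0.07 with library totals. Gm26870 on chromosome 9 overlaps 9 other annotated genes. It had 130, 34.3 and 26.5 normalized CPM in JMML libraries, against 33.9, 317 and 354 in WT libraries, high in the same WT libraries as AY036118. The kit removes rRNA, and the part of residual rRNA in these values was not tested.

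The 10 lincRNAs with the highest normalized CPM per kb of exon were these 4, Malat1, Gm10076, Mir142hg, 1700020I14Rik, Epb41l4aos and Tmem250-ps. 1700020I14Rik, the mouse gene also called Cyrano, which directs decay of a miRNA, had 234, 181 and 217 normalized CPM in JMML libraries, against 249, 279 and 260 in WT libraries. Its groups did not overlap, and its log2 fold change of -0.32 ± 0.13 did not pass the test (adjusted p = 0.105); with library totals it was -0.51 and called. Tmem250-ps, which RefSeq types as protein-coding, was called lower at -0.46 ± 0.13 (adjusted p = 0.0421, edgeR). It lost the call in 10 of 17 alternatives, with the omission of any 1 library among them (-0.52 to -0.30). Gm10076, which RefSeq types as a pseudogene, was not called (0.41 ± 0.17). 2900097C17Rik, or Norad, which binds Pumilio proteins and guards chromosome number, had a log2 fold change of 0.10 ± 0.19 that turned to -0.08 with library totals. Lncpint, a target of p53, stood at -0.07 ± 0.54, turned to 0.37 without JMML replicate 3 and was -1.60 with the letter as a covariate.

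Of the 39 called lincRNAs, 38 had a tested nearest coding gene. That gene was called in the same direction for 11 (28.9%), in the opposite direction for 3, and was not called for 24. Among called autosomal coding genes, the nearest tested coding gene was called in the same direction for 20.1%. For called lincRNAs that overlap no other gene the share was 5 of 21 (23.8%). Same-direction pairs were Gpr141b with Gpr141, AW112010 with Ms4a8a, E230001N04Rik with Fkbp5 and Gm807 with Zfp366, all higher in JMML. The lower pairs included Gm19590 with Kdr, Gm15675 with Cd55 and, named after their values were seen, AI480526 with the histone methyltransferase gene Setd1b (-1.58) and AI504432 with the potassium channel gene Kcna3 (-0.87). In the 3 opposite pairs, the lincRNA was lower and the coding gene higher in JMML. They were Neat1 with Frmd8 (0.47), 2610035D17Rik with Slc39a11 (0.55) and, named for this alone, 4632404H12Rik with Ube2q1 (0.69). 1300002E11Rik lies on the same strand within Map3k13, both lower in JMML, so reads of the pair cannot be told apart with certainty.

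**Figure D5:**
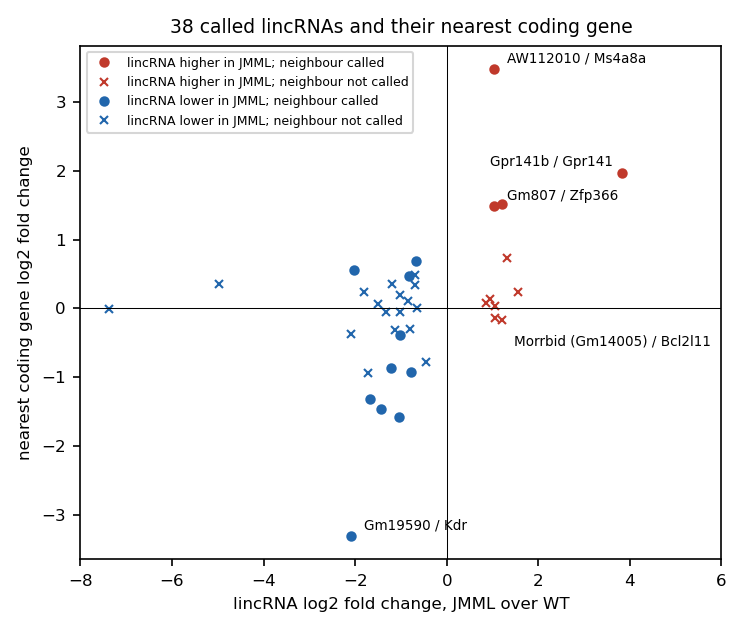
Each point is 1 of the 38 called lincRNAs with a tested nearest coding gene, with the lincRNA's log2 fold change, JMML over WT, on the x axis and the coding gene's on the y axis. Red marks lincRNAs higher in JMML and blue those lower, and filled circles are coding genes called as well. Gpr141b with Gpr141 stands at 3.82 and 1.97, Gm19590 with Kdr at -2.08 and -3.31.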

How the data were processed

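RNA-seq was made with a stranded, rRNA-depleting total RNA kit, per the labels' protocols. The deposited files hold raw read counts per gene, 1 file per library, per the labels. The submitters' processing notes name, with no role, DESeq2 1.22.2, R 3.5.0, STAR 2.5.3a and bcl2fastq 2.18.0.12, StringTie 1.3.3b and Picard 2.0.1, and the build GRCm38; the counter, its annotation and its strand setting were not given in the sources used here. If strand was not used, reads of overlapping genes on opposite strands were mixed. Even counts made up 51.6% to 58.8% of counts from 1 to 20.

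Gene types came from GENCODE vM21, which matched 45229 of 46078 genes. Membership used plain CPM. The whole table was filtered with filterByExpr, scaled by TMM and tested with edgeR 4.0.16 (R 4.3.3; quasi-likelihood F test, 3 JMML against 3 WT libraries, Benjamini-Hochberg over 18097 genes), and the lincRNA rows are reported; the SE was derived from the F statistic. DESeq2 1.42.0 and limma-voom (limma 3.58.1) were alternatives. On simulated counts for this comparison (17857 genes), the test recovered 4.1% of 1.5-fold, 28.6% of 2-fold and 92% of 4-fold changes. The simulation changed 49 or 50 genes at each fold size. Every gene was given the common biological coefficient of variation, 29.4%. It made 116 calls, against 4737 among all genes tested in the real data. Its adjusted threshold was therefore stricter, so these shares do not give the recovery in the real data.

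The members and lists were chosen with earlier results of these data known. Genes were named by these rules: lincRNAs on the list of known roles, the 10 highest per kb of exon, the 10 largest called increases and decreases without overlap, and hosts on the snoRNA and miRNA lists; the remaining hosts and 4 X-linked lincRNAs are counted or left out.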

Additional observations from a re-analysis of the deposited data

How the results depend on the processing

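Each group had 3 libraries, and the identifier letter was F in JMML replicates 1 and 2 alone. The letter as a covariate and the M libraries alone thus both compare JMML replicate 3 with WT. Against 11 higher and 28 lower lincRNAs, library totals gave 7 higher, the replicate block 7 higher (19 lower), the letter as a covariate 3 and 9, and M libraries alone 3 and 13; leaving out 1 library gave 5 to 9 higher and 11 to 22 lower. Of the calls with the letter 10 of 12 were shared with the 39, and 13 of 16 in M libraries. Same replicate numbers had deviations correlated at -0.199, 0.045 and -0.143, and other JMML and WT pairs at -0.096 to 0.229. With 3 libraries per group, these values cannot tell whether libraries were paired. DESeq2 gave 15 higher and 35 lower, limma-voom 12 and 28. The JMML minus WT difference in percent of counts, -1.5, was -0.446 without Gm26917 and -0.174 without the 3 rRNA-locus lincRNAs (added after seeing the data), and -1.96 to -1.05 with 1 library left out. Signs turned, all among uncalled genes, for Gm42418 (-0.068 by totals, -0.054 without WT replicate 2, -0.079 without WT replicate 3, range to 0.681 with 1 library left out), 2900097C17Rik (-0.081 by totals), Snhg20 (-0.18 by totals, -0.045 at 50 counts, -0.268 with the letter, -0.232 in M libraries, -0.082 without JMML replicate 1, -0.075 without WT replicate 3, range to 0.182), Pvt1 (0.037 without WT replicate 1, range from -0.762) and Lncpint (0.017 unfiltered, 0.367 without JMML replicate 3, 0.175 without WT replicate 2, -0.488 at lowest with 1 library left out, -1.597 with the letter). The causes were not tested.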
